A study of Mus musculus with 12 samples.

Results

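Nup133, Trappc2l, Zfpm1, Piezo1, Chmp1a and Gas8 are 6 genes that lie close together near the distal end of mouse chromosome 8. They were selected on their position and on the difference in their measured intensity between MSN and ICR hippocampus, and they are 6 of 19938 genes with a transcript cluster of their own on the array. A transcript cluster is the set of probes along 1 transcript, and the 6 genes had 8 clusters of the 35556 in the value table, since Piezo1 had 3. All 8 are reported here, and none shared its 12 values with another cluster. The strain difference itself served to choose the genes, so it is given for them as a description, without a test.

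Total RNA was taken from macrodissected hippocampus of 6 Madison (MSN) and 6 hsd:ICR (ICR) mice, all adult males, and hybridized to 1 array per mouse. MSN is an inbred line, selectively bred out of the outbred ICR stock, with a manic phenotype, and ICR served as its control. The labels name no drug for either strain. Because MSN is a single inbred line, its 6 mice are separate animals but do not sample other lines of the same origin. In tissue RNA, fewer cells of a type and less RNA per cell cannot be told apart.

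The 6 genes work in different parts of the cell. Nup133 encodes a scaffold subunit of the Y complex, the building block of the rings of the nuclear pore, through which RNA and proteins pass. Trappc2l encodes a subunit of TRAPP, the tethering complex that guides vesicles between the endoplasmic reticulum and the Golgi. Zfpm1, also called friend of GATA, encodes a zinc finger cofactor that binds GATA transcription factors and recruits the NuRD repressor complex. Piezo1 encodes an ion channel opened by stretch of the membrane. Chmp1a encodes a subunit of ESCRT-III, which cuts membrane necks when vesicles bud into endosomes and when cells divide. Gas8 encodes a subunit of the nexin-dynein regulatory complex, which links the doublet microtubules of motile cilia. What the genes share is their place on the chromosome. Variants that lie this close together tend to be inherited together, and in an inbred line they become fixed together.

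RefSeq start windows of GRCm38.p6, from 250 bases before to 50 bases after a gene's start, were found for all 6 genes. Parts of 3 are shown, because the windows differ in short motifs that few starts carry. Nup133 is shown as the gene that gives the group its name. Its 250 bases before the start are chr8:123949266-123949515 on the minus strand, with the motif TGACGTCA, the palindrome known as the cAMP response element, in capitals.
Nup133: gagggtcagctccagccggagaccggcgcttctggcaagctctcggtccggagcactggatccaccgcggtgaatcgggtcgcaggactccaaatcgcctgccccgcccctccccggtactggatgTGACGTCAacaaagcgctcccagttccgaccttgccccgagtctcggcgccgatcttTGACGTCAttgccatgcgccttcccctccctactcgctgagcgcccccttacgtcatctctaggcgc
The motif stood at 2 places, 124 and 67 bases before the start. Of 32851 start windows, 1.79% held it at least once and 0.0396% held it at least 2 times.

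Chmp1a and Gas8 are shown because both windows held TCTCGCGA, in capitals below, which was found on either strand in 0.995% of all windows. The stretch of Chmp1a, chr8:123212787-123212857 on the minus strand, covers the 69 bases between its start and the start of Spata33 on the other strand, and 2 bases beyond. The stretch of Gas8 is chr8:123518783-123518842 on the plus strand.
Chmp1a: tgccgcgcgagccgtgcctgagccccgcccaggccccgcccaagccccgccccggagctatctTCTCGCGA
Gas8: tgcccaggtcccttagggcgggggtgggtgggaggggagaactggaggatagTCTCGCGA
In Chmp1a the motif spanned the start, and in Gas8 it began at the start. The same search found TATAAA on either strand in Piezo1 alone among the 6 windows, against 13.6% of all windows, and GGGCGG in all 6, against 35.7%. G and C made up 55.7% (Gas8) to 75% (Piezo1) of the bases of the 6 windows. The median over all windows was 52.7%, so these shares are not those of windows alike in base content. The motifs were chosen after the windows had been read, and a match describes the letters only.

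Among the 6 genes, the difference between the strains ran one way at the near end of the stretch and the other way at the far end. Along the chromosome the order is Zfpm1, Piezo1, Trappc2l, Chmp1a, Gas8 and Nup133. Zfpm1, Piezo1 and Trappc2l had higher means in MSN mice, and Chmp1a, Gas8 and Nup133 had lower means. In 4 of the 6 genes no MSN value overlapped an ICR value, Piezo1 being counted by its brightest cluster, and 1.48% of all genes were separated in this way. That contrast chose the genes, and nothing is read from the count or from the order of the signs. Intensities below are the authors' linear PLIER values, and a log2 difference is MSN minus ICR on the log2(intensity + 16) scale, with its standard error from limma. The number of arrays limits the precision.

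**Figure D1:**
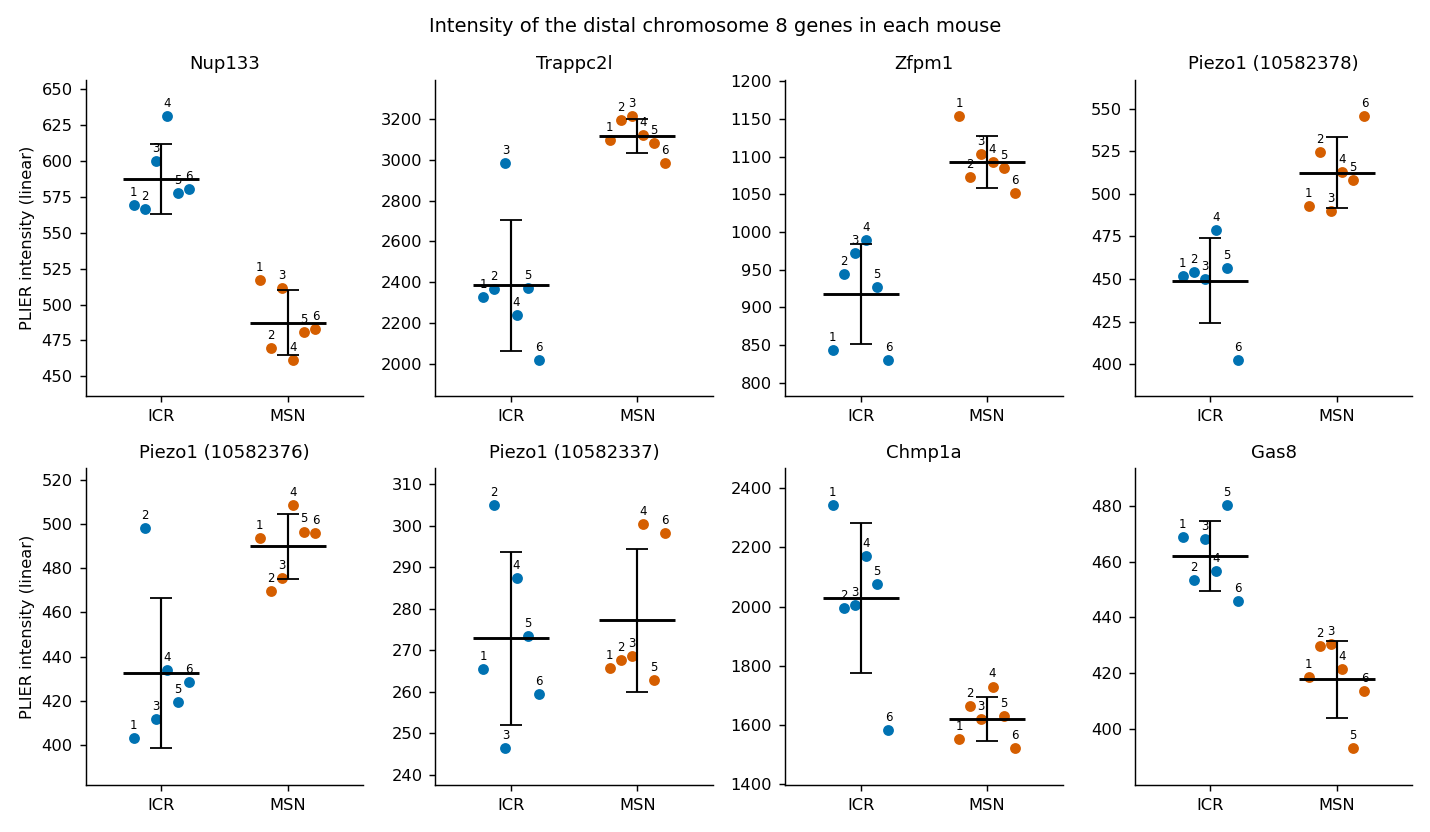
Linear PLIER intensity of the 8 transcript clusters of the 6 genes. Each point is 1 mouse with its replicate number (ICR blue, MSN orange), and lines and bars are the mean and SD of 6 mice. ICR mouse 3 in Trappc2l and ICR mouse 6 in Chmp1a lie among the MSN values, and the dimmest cluster of Piezo1 (10582337) shows no gap between strains.

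Nup133 was lower in every MSN mouse than in any ICR mouse. Its intensity was 462 at the lowest, 482 at the median and 517 at the highest in MSN mice, and 566, 579 and 631 in ICR mice. The means were 487 ± 22.4 (SD, n = 6) and 587 ± 24.4 (SD, n = 6), a log2 difference of -0.26 (standard error 0.0393) and a ratio of 0.834. The gap between the strains, from 517 to 566, was wider than the SD of either.

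Trappc2l was higher in MSN mice, with a wide spread among ICR mice. MSN mice read 2985 at the lowest, 3110 at the median and 3215 at the highest, and ICR mice read 2019, 2346 and 2986. The means were 3117 ± 84.0 (SD, n = 6) and 2385 ± 323 (SD, n = 6), a log2 difference of 0.39 (standard error 0.0699). The highest ICR value was that of mouse 3 (mice are named by their replicate number), which lay within the MSN range, while the other 5 ICR mice lay below every MSN mouse.

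Zfpm1 was higher in every MSN mouse than in any ICR mouse. In the order lowest, median and highest, MSN mice read 1052, 1089 and 1154 and ICR mice 830, 936 and 989. The means were 1093 ± 34.6 (SD, n = 6) and 918 ± 66.6 (SD, n = 6), a log2 difference of 0.25 (standard error 0.0469).

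Piezo1 was measured by 3 clusters, and they did not give the same picture. In the brightest, MSN mice lay between 490 and 546 with a median of 511, and ICR mice between 403 and 479 with a median of 453, without overlap. Its log2 difference was 0.19 (standard error 0.0424). The next cluster had a log2 difference of 0.18 (standard error 0.0468), with MSN mice between 469 and 509 around a median of 495 and ICR mice between 403 and 498 around a median of 424. There ICR mouse 2 alone reached into the MSN range. In the dimmest cluster the log2 difference was 0.02 (standard error 0.0526), and MSN mice, between 263 and 300, lay wholly inside the ICR range of 246 to 305. A strain difference of this stretch channel was thus seen by 2 of its 3 clusters.

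Chmp1a was lower in MSN mice, and 1 ICR mouse was as low as they were. The lowest, median and highest intensities were 1522, 1625 and 1730 in MSN mice and 1584, 2042 and 2343 in ICR mice. The means were 1620 ± 75.1 (SD, n = 6) and 2029 ± 253 (SD, n = 6), a log2 difference of -0.31 (standard error 0.0737). The ICR mouse at 1584 was mouse 6, and the other 5 lay above every MSN mouse.

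Gas8 was lower in every MSN mouse than in any ICR mouse. MSN mice read 393 at the lowest, 420 at the median and 430 at the highest, and ICR mice read 446, 462 and 480. The means were 418 ± 13.7 (SD, n = 6) and 462 ± 12.5 (SD, n = 6), a log2 difference of -0.14 (standard error 0.0331).

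The spread within each strain differed from gene to gene, and in all 6 genes a single mouse moved its ratio between the strains by over 1.5 times. The SD of log2(intensity + 16) in ICR mice was 4.74 times that in MSN mice for Trappc2l, and 2.47 times without ICR mouse 3. For Chmp1a the ratio was 2.85, and 1.44 without ICR mouse 6. For Zfpm1 it was 2.34, and 3.95 without MSN mouse 1. Whichever mouse was left out, the ratios of Trappc2l and Zfpm1, and narrowly that of Chmp1a, stayed above 1.42. That was the upper quartile over all 21789 clusters with a single gene. The lower quartile was 0.717 and the median 1.01.

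In the brightest cluster of Piezo1 the ratio was 1.42, and 0.623 without ICR mouse 6. Over all mice the ratio was 2.49 in its next cluster and 1.24 in its dimmest. In Nup133 it was 0.898, with 0.498 without ICR mouse 4 and 1.05 without MSN mouse 1. In Gas8 it was 0.815, and 1.6 without MSN mouse 5. In these 3 genes the order of the strains by spread therefore varied with the mice included, in Nup133 only slightly. The same values entered the choice of the genes, so the ratios are descriptions and were not tested.

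A single ICR mouse was the lowest of its strain in most of these genes. ICR mouse 6 had the lowest ICR value in 5 of the 6 genes, all but Nup133, with Piezo1 by its brightest cluster. In the next cluster of Piezo1 ICR mouse 1 was lowest, at 403 against 429 in mouse 6. In the dimmest it was ICR mouse 3, at 246 against 260 in mouse 6. Over all genes ICR mouse 6 was lowest of the ICR mice in 15.9%, and among the 82 neighbors described below in 14. Its array median, 383, lay within the range of the ICR arrays, 379 to 389. In Trappc2l, Zfpm1 and Piezo1 this mouse lay on the side away from the MSN mice, while in Chmp1a and Gas8 it lay toward them. Without it the log2 differences were -0.26 for Nup133, 0.35 for Trappc2l, 0.22 for Zfpm1, 0.16 for Piezo1, -0.38 for Chmp1a and -0.15 for Gas8.

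**Figure D2:**
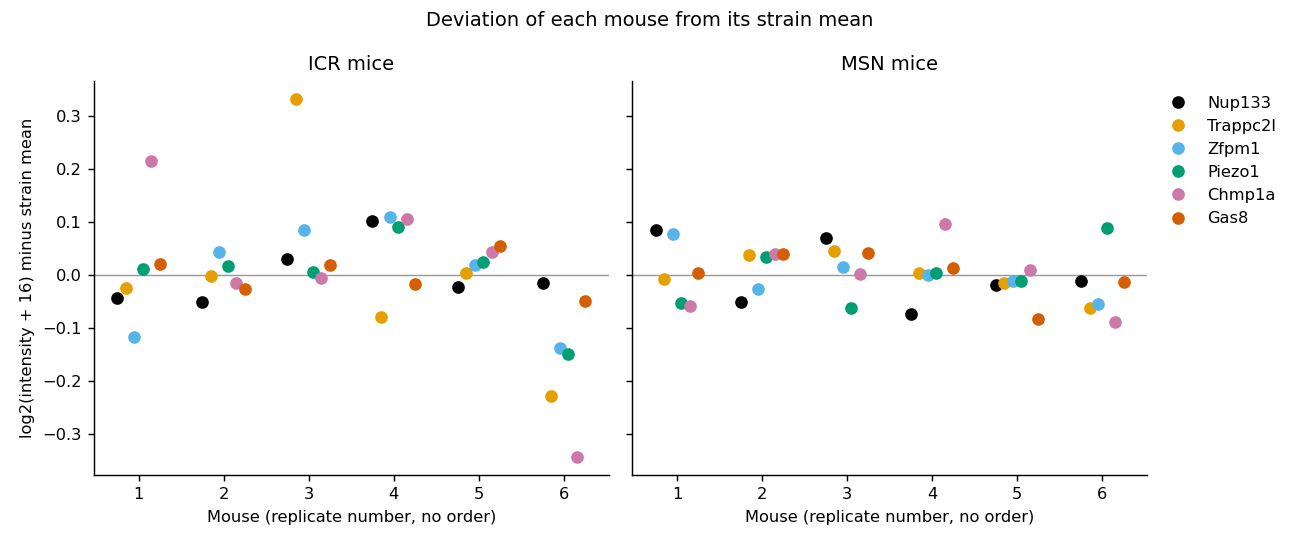
Deviation of each mouse from its strain mean, on the log2(intensity + 16) scale, for the 6 genes (colors), with Piezo1 by its brightest cluster. ICR mouse 6 is the lowest ICR mouse in all genes but Nup133, and ICR mouse 3 stands out in Trappc2l only.

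Among ICR mice the 6 genes, with Piezo1 by its brightest cluster, tended to go up and down together, and the tendency rested on mouse 6. Over the 15 pairs of genes, Pearson's r across the 6 ICR mice was above 0 in 14, with a median of 0.436, and across the 6 MSN mice it was above 0 in 8, with a median of 0.0989. Set against all other genes, the median r of each of the 6 genes lay between -0.0750 and 0.0299 in ICR mice. Without ICR mouse 6 the median r over the pairs was 0.0622, with 8 of 15 above 0. In two-sided exact permutation tests of r over all 30 pairs in both strains, 2 had an unadjusted p under 0.05 and 0 an adjusted p under 0.05 (lowest adjusted p = 0.528).

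Those 2 pairs were the same genes, Zfpm1 and Piezo1 (by its brightest cluster), once in each strain. In ICR mice r was 0.75 (exact permutation p = 0.0222, adjusted p = 0.528) and Spearman's rho 0.60 (exact permutation p = 0.242, adjusted p = 0.889), and r was 0.59 without the 2 mice farthest from the median of Zfpm1. In MSN mice r was -0.84 (exact permutation p = 0.0375, adjusted p = 0.528) and rho -0.89 (exact permutation p = 0.0333, adjusted p = 0.50), and r was -0.90 without the 2 farthest mice. The difference between the strains was not tested, and r was not computed for the dimmer clusters of Piezo1. The highest r of all, 0.85 for Piezo1 and Chmp1a in ICR mice (exact permutation p = 0.0528, adjusted p = 0.528), had a rho of 0.54 (exact permutation p = 0.297, adjusted p = 0.889) and fell to -0.15 without the 2 mice farthest from the median of Piezo1.

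The genes whose levels varied most like these 6 came from across the genome. For each of the 6, 10915 single-gene clusters with a mean above the median were ranked by Pearson's r over the 12 mice after the strain means were subtracted. Nup133 was most like Commd5 (r = 0.94) and Napg (r = 0.91), and Trappc2l was most like Cox7b (r = 0.91) and Pan3 (r = 0.91). Zfpm1 was closest to Matr3 (r = 0.93) and Vps50 (r = 0.92), Piezo1 to Baz2a (r = 0.85) and Dock6 (r = 0.84), Chmp1a to Smad1 (r = 0.90) and Lpcat1 (r = 0.88), and Gas8 to Btf3l4 (r = 0.89) and Porcn (r = 0.88). Of these 12 genes, Smad1 lies on chromosome 8 too, which held 5.35% of the clusters ranked. With the strain difference left in, Nup133 was most like Dpy19l4 (r = 0.95), Slc16a14 (r = 0.94) and Tmem120b (r = 0.93). The values share their arrays and are the highest of many, given as a description.

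Most of the genes left between the 6 had small differences, as did most genes of the array. From Zfpm1 to Nup133 the array measured 42 other genes with a cluster of their own, and 32 of them, or 76.2%, had a log2 difference within 0.1 of 0, against 81.1% of all genes. Their median was -0.02, against -0.01 for all genes, and 0 of the 42 separated the strains without overlap. In limma, 4 of the 42, or 9.52%, had a P-value of 0.01 or less, against 4.41% of all genes and 4.96% of the rest of chromosome 8. Rpl13 and n-R5s136, of which near-identical copies exist elsewhere in the genome, were 2 of these 4, and without them 2 of 40 genes remained, or 5%. At an adjusted p under 0.05, limma called 0 of the 42, with 8 at an unadjusted p under 0.05, against 0.777% and 12.6% of all genes. The 6 genes were chosen in part for their strain difference and are left out of the 42. That choice by itself lowers the counts of separated and called genes among the rest. The region was known to hold the 6 genes when it was examined, so the shares describe it and were not tested. The 4 genes became 2 without MSN mouse 4 or 5, or without ICR mouse 1, 2 or 5.

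**Figure D3:**
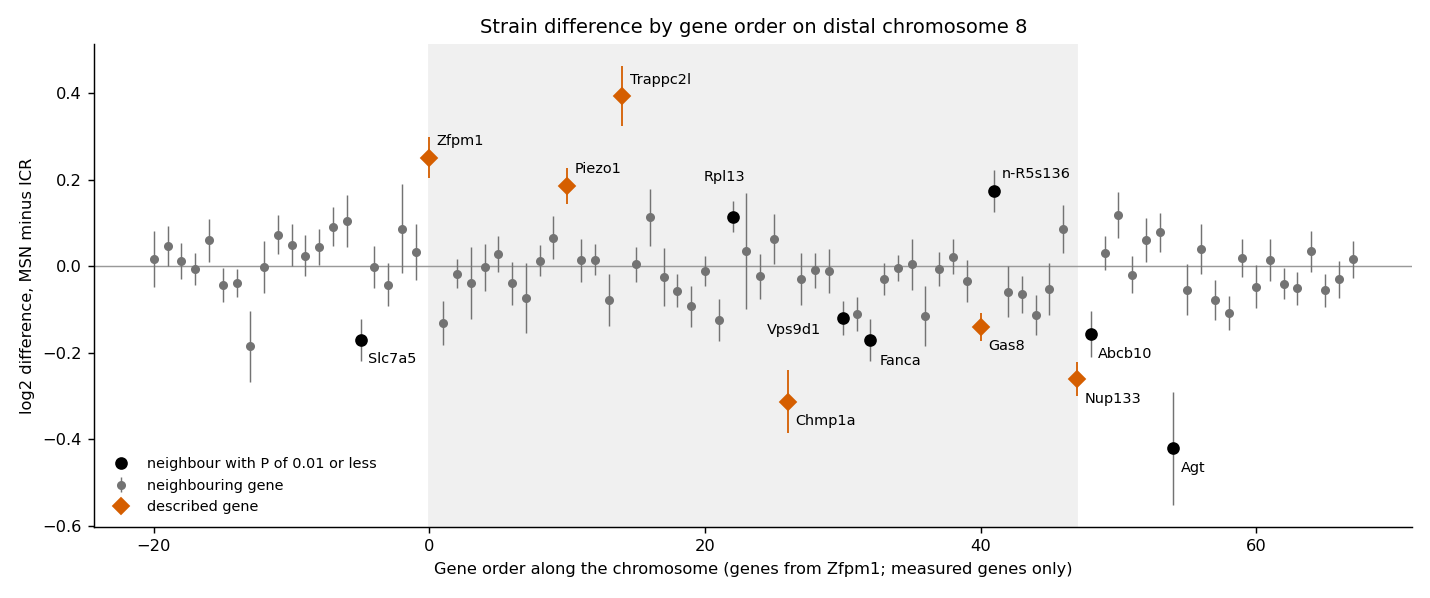
Log2 difference (MSN minus ICR) with its standard error for each measured gene from 20 genes before Zfpm1 to 20 after Nup133, in gene order. The 6 described genes are orange, neighbors with a P-value of 0.01 or less are black and named, and the shaded part runs from Zfpm1 to Nup133. Most neighbors stay near 0 between the orange points.

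Fanca, Vps9d1, Rpl13 and n-R5s136 were these 4 genes. Fanca, of the Fanconi anemia DNA repair pathway, read between 170 and 195 in MSN mice, with a median of 187, and between 192 and 229 in ICR mice, with a median of 212. Its log2 difference was -0.17 (standard error 0.0489, adjusted p = 0.142 from limma), and the strains overlapped slightly. Vps9d1, which carries a domain known from activators of endosomal Rab proteins, had a log2 difference of -0.12 (adjusted p = 0.203 from limma). Both lie between Chmp1a and Gas8 and were below 0 like those genes. So were 28 of the 42 genes along the whole stretch, with 14 above 0, and 10899 of all 19938 genes. By contrast n-R5s136, listed between Gas8 and Nup133, was above 0.

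Rpl13, a ribosomal protein, had a log2 difference of 0.11 (adjusted p = 0.172 from limma), and the ribosomal RNA gene n-R5s136 one of 0.17 (adjusted p = 0.124 from limma). Rpl13 had 9 clusters under its name, with log2 differences of 0.06 to 0.12, and genes of both kinds have near-identical copies elsewhere in the genome. These values cannot be placed on chromosome 8 with certainty.

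In the 20 genes on each side, 3 more had a P-value of 0.01 or less. Agt, which encodes the angiotensin precursor that astrocytes make in brain, had the largest difference of all 82 neighbors. It read between 614 and 886 in MSN mice, with a median of 768, and between 683 and 1269 in ICR mice, with a median of 1029. Its log2 difference was -0.42 (standard error 0.131, adjusted p = 0.178 from limma). It became -0.53 (adjusted p = 0.0356 from limma) without ICR mouse 1, the only mouse whose omission led to a called neighbor. Of 6 astrocyte markers 5 were below 0 too, among them Gfap at -0.30 and Aqp4 at -0.23, while Aldh1l1 was at 0.19. None of the 6 was called, and 4 had an unadjusted p under 0.05, against 0.777% and 12.6% of all genes. Their summed intensity ran from 20185 to 22519 in MSN and from 22412 to 24557 in ICR mice, and none was below 16 in all mice. The part of these markers in the value of Agt was not tested.

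Abcb10, a transporter of the mitochondrial inner membrane, is the next measured gene after Nup133. It had a log2 difference of -0.16 (standard error 0.0526, adjusted p = 0.217 from limma), with MSN mice between 257 and 326 and ICR mice between 301 and 340. Slc7a5, the large neutral amino acid transporter, lies before Zfpm1 and was at -0.17 (adjusted p = 0.144 from limma). The eighth neighbor by P-value was Zfp276, a zinc finger gene beside Fanca, at -0.11 (adjusted p = 0.252 from limma).

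Spata33 starts 69 bases from Chmp1a on the other strand, in the stretch printed above. MSN mice read 354 ± 31.9 (SD, n = 6) and ICR mice 361 ± 22.3 (SD, n = 6). The log2 difference of Spata33 was -0.03 (standard error 0.0596, adjusted p = 0.880 from limma), beside -0.31 for Chmp1a. The difference between the 2 genes was not tested.

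The other genes of the complexes, or for Piezo1 of the class of channels, to which the 6 belong were examined in 6 lists. Of 95 measured genes limma called 0 at an adjusted p under 0.05, against 0.777% of all genes, and 6, or 6.32%, had an unadjusted p under 0.05, against 12.6% of all genes. The largest differences were those of the channel genes Kcnk10 and Kcnk2, given below. Each list's median lay between -0.03 and 0.01, close to the -0.01 of all genes.

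**Figure D4:**
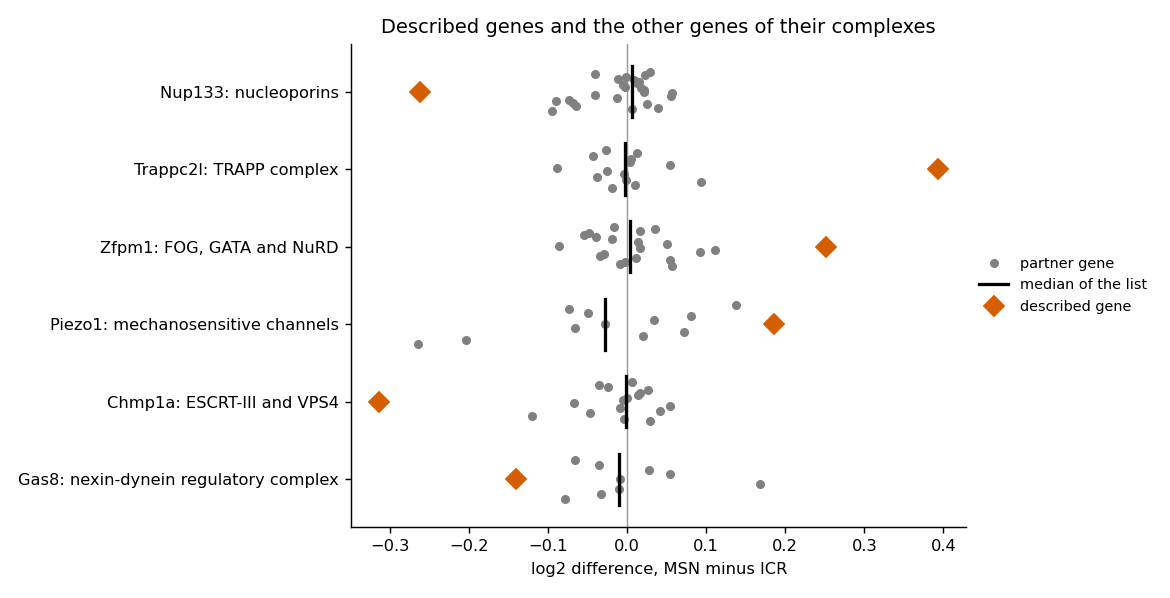
Log2 difference (MSN minus ICR) of each of the 6 genes (orange) and of the other measured genes of its complex or channel class (gray), with black lines at the median of the gray points. Vertical offsets only separate the points. The 6 genes lie outside the range of their lists, and they were chosen for this difference.

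Of 25 other nucleoporins, 13 were above 0 and 12 below, and 1 had an unadjusted p under 0.05. That gene was Nup188, of the inner ring, at -0.07 (adjusted p = 0.301 from limma). Aaas was at -0.09 (adjusted p = 0.470) and Nup160, which sits with Nup133 in the Y complex, at -0.09 (adjusted p = 0.418). The other Y complex genes on the list lay on both sides of 0. Nup107 was at -0.07, Sec13 at -0.04, Nup85 at -0.00457, Ahctf1 at 0.01, Nup98 (whose precursor also yields the Y complex subunit Nup96) at 0.01, Nup43 at 0.02, Seh1l at 0.03 and Nup37 at 0.06, with 0 of these 8 at an unadjusted p under 0.05 in limma. Nup133 at -0.26 lay below all 25.

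Of 14 other TRAPP genes, 6 were above 0 and 8 below, and 0 had an unadjusted p under 0.05 in limma. Their range was -0.09 to 0.09, against 0.39 for Trappc2l. The lowest P-values were those of Trappc3l (log2 difference -0.09, adjusted p = 0.535), Trappc11 (0.09, adjusted p = 0.642) and Trappc6b (-0.04, adjusted p = 0.650). Trappc2, the paralog of Trappc2l, read 2734 ± 128 (SD, n = 6) among MSN mice against 2742 ± 171 (SD, n = 6) among ICR mice, with a log2 difference of -0.00318 (standard error 0.0461).

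Among 20 genes of GATA factors, the paralog Zfpm2 and NuRD subunits, 10 were above 0 and 10 below. Gatad2a, a NuRD subunit, was at 0.11 with the strains apart, between 553 and 570 in MSN and between 499 and 550 in ICR mice (adjusted p = 0.139 from limma). On untransformed intensities its adjusted p was 0.0425. The deacetylase gene Hdac1 was at -0.09 (adjusted p = 0.451) and Mta2 at -0.05 (adjusted p = 0.587).

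Of 11 other mechanosensitive channel genes, 5 were above 0 and 6 below, and 3 had an unadjusted p under 0.05, all lower in MSN mice. Kcnk2, a potassium channel opened by stretch, had a log2 difference of -0.20 (standard error 0.0543, adjusted p = 0.110 from limma). Its MSN mice lay between 557 and 709 around a median of 571 and its ICR mice between 656 and 722 around a median of 686. Without MSN mouse 1, the only mouse whose omission led to a call in this list, the difference of Kcnk2 was -0.25 (adjusted p = 0.0104 from limma). Its relative Kcnk10 was at -0.26 (adjusted p = 0.194) and Tmem63c at -0.07 (adjusted p = 0.323), where MSN mice, up to 1597, lay below all ICR mice, from 1616. The paralog Piezo2 was measured at 124 ± 11.1 (SD, n = 6) among MSN mice against 117 ± 8.82 (SD, n = 6) among ICR mice, with a log2 difference of 0.07 (adjusted p = 0.655).

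Of 16 other genes of ESCRT-III and its disassembly, 8 were above 0 and 8 below. Chmp2b, an ESCRT-III subunit, was at -0.12 (adjusted p = 0.263 from limma), Chmp6 at -0.07 (adjusted p = 0.442) and Chmp3 at -0.05 (adjusted p = 0.673). Chmp1a at -0.31 lay below all 16.

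Of 9 other genes of the nexin-dynein regulatory complex, 3 were above 0 and 6 below, and 0 had an unadjusted p under 0.05 in limma. Ccdc65 was at -0.08 (adjusted p = 0.399), Tcte1 at -0.07 (adjusted p = 0.699) and Drc7 at 0.17 (adjusted p = 0.771). Ependyma carries motile cilia. Of 12 markers of ependyma and choroid plexus 11 were above 0, with a median of 0.19, while Gas8 was below 0. Of all 19938 genes, 9039 were above 0. The largest differences of the 12 were those of Kcnj13 at 0.82 and Clic6 at 0.47. Rsph1 was at 0.10, Ccdc153 at 0.07, Dynlrb2 at 0.05 and Tmem212 at -0.03. limma called 0 of the 12, with 0 at an unadjusted p under 0.05. Foxj1, the regulator of motile cilia, was at 0.10 (adjusted p = 0.584) and Ttr, from choroid plexus, at 0.34 (adjusted p = 0.546). Their summed intensity ranged from 10192 to 23253 in MSN and from 8583 to 23261 in ICR mice, and no marker was below 16 in all mice. Their part in the value of Gas8 was not tested.

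Markers of vessels, blood, microglia and oligodendrocytes were examined beside Piezo1 and Zfpm1, which are known from endothelial and blood cells. limma called 0 of 7 endothelial, 2 blood cell, 6 microglia and 5 oligodendrocyte markers, with 1, 1, 0 and 2 at an unadjusted p under 0.05. Over all genes the shares were 0.777% called and 12.6% at an unadjusted p under 0.05. Above 0 were 4 of the 7 endothelial, 1 of the 2 blood cell, 5 of the 6 microglia and all 5 oligodendrocyte markers. Of all 19938 genes, 9039 were above 0. Slco1a4, of the blood-brain barrier, was at -0.17 (adjusted p = 0.281), Cldn5, of its tight junctions, at 0.16 (adjusted p = 0.540) and Alas2, of erythroid heme synthesis, at 0.15 (adjusted p = 0.376). The microglial receptor P2ry12, the one microglia marker below 0, was at -0.09 (adjusted p = 0.430), beside a list median of 0.04, and the myelin gene Mbp at 0.09 (adjusted p = 0.286). The summed endothelial intensity ran from 4142 to 5274 in MSN and from 4187 to 4542 in ICR mice. The blood cell sum ran from 507 to 659 and from 512 to 594, the microglial sum from 3966 to 4587 and from 3850 to 4456, and the oligodendrocyte sum from 16695 to 19654 and from 16278 to 18410. All 8 markers of hippocampal neurons were measured in every mouse, such as Prox1 of the dentate gyrus, between 923 and 1435. Of the 8, 7 were above 0 and 1 below, with a median of 0.08. None of them was called, and 2 had an unadjusted p under 0.05. The part of these cells in the values of Piezo1 and Zfpm1 was not tested.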

How the data were processed

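Hippocampal RNA of 6 MSN and 6 ICR mice was measured on Affymetrix Mouse Gene 1.0 ST arrays, and the labels name strain and replicate number. Affymetrix Power Tools 1.12.0, with PLIER summaries and GC-bin background correction, gave the intensity values that the authors deposited. They are linear, 1 value per transcript cluster, and sequence differences between the strains under the probes were not examined. Array medians over the tested clusters were 373 to 389, and correlations between arrays were 0.992 to 0.997 within and 0.992 to 0.996 between strains. Scan dates and batches are not given in the sources used here.

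After adding 16, log2 was taken and limma 3.58.1 (R 4.3.3; lmFit, eBayes, strain as the only term) was fitted over the 23410 clusters with at least 1 gene in the platform annotation, and p-values were adjusted by Benjamini-Hochberg. P-values of single genes are from this fit unless an exact permutation test is named. The code was tested on simulated data. Of 21789 single-gene clusters 21698 matched a RefSeq gene by gene ID. A gene with several clusters was represented by the one with the highest mean. Gene order and start windows were taken from RefSeq (GRCm38.p6).

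The 6 genes and the lists were chosen with earlier results of these data known. Named genes are all clusters of the 6 genes, the 8 neighbors and the 3 genes of each list with the lowest P-values, the most alike clusters and markers of each cell type. Spata33, Trappc2, Piezo2, Disc1 and the Y complex genes other than Nup160 were named outside this rule, after their values were seen. Alternatives were quantile normalization, scaling of the arrays to a common median, no log transformation, a pseudocount of 1 or 64, trended and robust eBayes, clusters above the median, array weights, all clusters, the cluster with the lowest P-value, a replicate block, and every array left out in turn. SD ratios without each array and the neighbor count without multicopy genes were added after the data had been seen.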

Additional observations from a re-analysis of the deposited data

Results flagged for a closer look

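In Dixon's test on the log2(intensity + 16) scale of the 16 groups of 6 values (8 clusters in 2 strains), 2 groups held a mouse far from the others, and chance flags about 1 in 20 groups. In the brightest cluster of Piezo1, ICR mouse 6 lay below the other ICR mice by a gap of 0.645 of the group's range on that scale, with a linear intensity of 403 against 450 or more. In the next cluster of Piezo1, ICR mouse 2 lay above the others by 0.652 of the range, with a linear intensity of 498 against 434 or less. The mice and the directions differ between the clusters of 1 gene.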

How the results depend on the processing

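The sign of the strain difference stayed the same for Nup133, Trappc2l, Zfpm1, Chmp1a, Gas8 and the 2 brighter clusters of Piezo1 in every alternative that changes it and without each array, and each value moved by less than the SD between mice pooled over both strains. Without 1 array the log2 differences ranged from -0.28 to -0.24 for Nup133, 0.35 to 0.46 for Trappc2l, 0.22 to 0.27 for Zfpm1, 0.16 to 0.20 for the brightest cluster of Piezo1, -0.38 to -0.27 for Chmp1a and -0.15 to -0.12 for Gas8. The dimmest cluster of Piezo1 ranged from -0.00443 to 0.05. Trappc2l had the largest difference over all 12 mice and Chmp1a without ICR mouse 6. The count of neighbors between Zfpm1 and Nup133 at a P-value of 0.01 or less was 2 with the replicate number as a block, 2 without the multicopy genes Rpl13 and n-R5s136 (an alternative chosen after seeing the data) and 2 to 5 without 1 array. The numbers do not pair the mice: deviations of mice with the same number correlated between -0.126 and 0.125, and 1 of the 6 numbers had its best match in its own number. The number of neighbors called went from 0 to 1 without ICR replicate 1 (range 0 to 1 without 1 array). The list of FOG, GATA and NuRD genes had 1 call on untransformed intensities, and the mechanosensitive channels had 1 with array weights and 0 to 1 without 1 array. The cause of these changes was not tested. The other lists and the pairs within strains kept 0 calls in every alternative run.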

Other observations

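Disc1, which encodes a scaffold protein named for a translocation found in a family with schizophrenia and mood disorders, is the farthest of the 20 genes examined after Nup133. Its intensity lay between 285 and 325 in MSN mice, with a median of 303, and between 277 and 314 in ICR mice, with a median of 302. The log2 difference was 0.02 (standard error 0.0420, adjusted p = 0.909 from limma).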
